A study of Mus musculus with 9 samples.

Results

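Cartilage genes were followed as a group of 10 in the transcriptome of the mouse heart. The members were Col2a1, Acan, Comp, Matn1, Matn3, Sox9, Hapln1, Cnmd, Col9a1 and Col11a2, of 41710 gene names in all. They were chosen by name, with earlier results of these same libraries in view, so their differences between groups are given as a description. No p-value is printed for the level of a member, and the number that passed the threshold of the fit over all genes is set beside the share of all genes that did, without support being drawn from it. Reads and transcript levels (TPM, reads per transcript length scaled to the same total in each library) were added up over all transcripts with the same gene name. Whole hearts came from male FVB/N mice aged 8 months in 3 groups of 3 libraries each. Tg-RKIP hearts carried an RKIP transgene that the alpha-MHC promoter drives in the myocardium, a second group was labelled Tg-GRK2, and FVB controls carried no transgene. The labels number the hearts within each group, and the study describes Tg-RKIP and FVB replicates as hearts of different mice, so standard errors and p-values measure the spread between 3 libraries of a group. That spread was small. Squared differences between libraries of a group had a median of 1.25 to 1.52 times that of sampling noise. The common biological coefficient of variation was 2.86%, which is low for separate animals. Technical and biological spread therefore cannot be told apart, and small p-values carry this limit.

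Cartilage is a tissue of few cells in an abundant matrix. Chondrocytes surround themselves with fibrils of type II collagen that also hold type IX and type XI collagen, and fill the space between them with the large proteoglycan aggrecan, which link protein anchors to hyaluronan. Matrilins and COMP bridge these components, and the transcription factor SOX9 switches on many of their genes together with SOX5 and SOX6. The adult heart muscle is not a cartilage tissue, although cells of the valves and of the fibrous skeleton of the heart can express several of these genes, and some mouse strains form small cartilage islands at the base of the aorta.

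Total reads ran from 25458108 to 33447654 per library. Pebp1, which encodes RKIP, stood at 16200 ± 208 TPM in Tg-RKIP against 325 ± 4.54 TPM in FVB (mean ± s.d., n = 3), whereas Grk2 stood at 27.3 ± 2.90 TPM in the Tg-GRK2-labelled libraries and 27.1 ± 1.05 TPM in FVB, so that this group is named by its label throughout. Mitochondrially encoded genes took 11.5 to 11.8% of reads in Tg-RKIP, 22.4 to 22.9% in the Tg-GRK2-labelled libraries and 22.9 to 23.2% in FVB. The scaling also moved the differences, and the part of the mitochondrial reads in this was not tested. After trimmed mean of M values (TMM) scaling the median log2 difference between Tg-RKIP and FVB over all 15504 genes tested was 0.009, against 0.38 when reads were scaled to library size alone and 0.43 on the TPM scale. Values of log2 differences below use TMM. Of all genes tested, 36.8% passed an adjusted p of 0.05 as higher in Tg-RKIP hearts than in FVB controls and 37.1% as lower in edgeR's quasi-likelihood test, and scaling to library size alone moved these counts from 5709 higher and 5751 lower to 9709 and 2650.

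**Figure D1:**
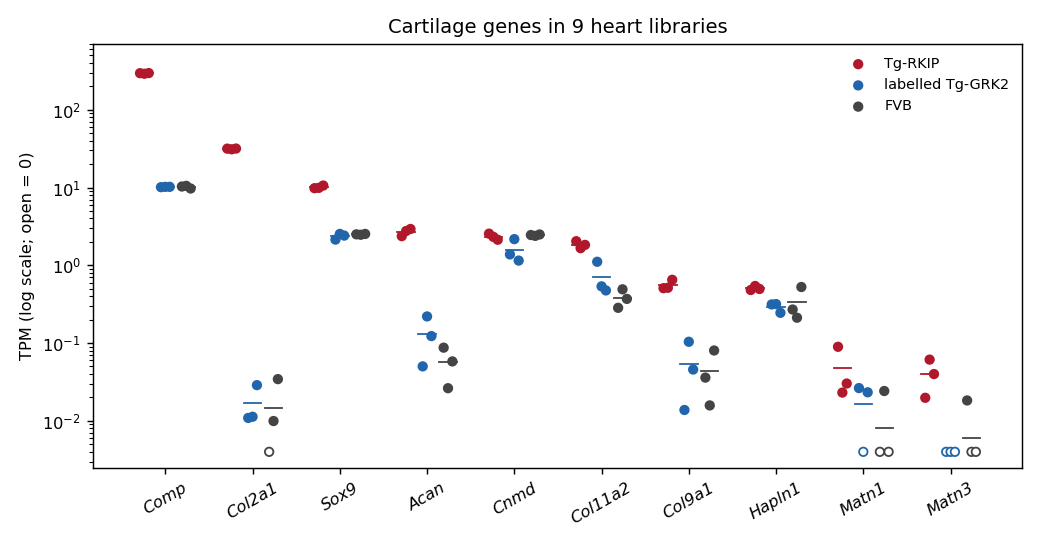
Level of each of the 10 cartilage genes in each library, in TPM on a log axis; points are libraries, short lines are group means and open points are libraries at 0. Comp and Col2a1 stand highest in Tg-RKIP, Cnmd overlaps between Tg-RKIP and FVB, and both matrilins lie below 0.1 TPM throughout.

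Type II collagen is the main fibril of cartilage, and its gene showed the widest separation of the groups. Col2a1 (15:97873483-97902576 in the deposited coordinates, GRCm39, minus strand) had 2593, 3291 and 2563 reads in the 3 hearts with the RKIP transgene, 1, 1 and 3 in the Tg-GRK2-labelled libraries, and 0, 1 and 3 in FVB. Tg-RKIP stood apart from both other groups, which overlap each other and were at the floor of counting, here an average of 3 reads or fewer per library. In TPM this was 31.6, 31.0 and 31.7 in Tg-RKIP. The ratio of summed reads to FVB was 1630 with a 95% interval of 638 to 6000, and to the Tg-GRK2-labelled libraries it was 1400 (598 to 4300), intervals that cover counting error only. With so few reads outside Tg-RKIP a single library sets the size of the ratio, which was 4480 (803 to 177000) without FVB replicate 3 and, against the Tg-GRK2-labelled libraries, 2220 (615 to 18300) without their replicate 3.

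Type II collagen RNA is known in a form with exon 2, which encodes a cysteine-rich domain of the N-propeptide and is typical of chondroprogenitors, and in a form without it, typical of mature chondrocytes. The exon is printed because the deposited transcripts separate the forms by it. It covers 204 bases at chr15:97898284-97898487 on the minus strand (GRCm39, sequence from GENCODE M21), and is the one exon that the form with 53 exons lacks among the 54 exons of the other.

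Col2a1 exon 2: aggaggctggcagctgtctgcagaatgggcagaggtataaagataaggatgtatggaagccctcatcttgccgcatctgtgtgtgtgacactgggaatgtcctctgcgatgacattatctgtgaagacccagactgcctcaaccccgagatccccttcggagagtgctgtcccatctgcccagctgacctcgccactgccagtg

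The form without exon 2 held most Col2a1 reads in every Tg-RKIP library, with 2214, 2623 and 2180 reads. The form with exon 2 held 379, 668 and 381 reads, which is 14.6% (95% exact binomial interval 13.3 to 16.0), 20.3% (18.9 to 21.7) and 14.9% (13.5 to 16.3) of the reads of the gene, or 16.6% ± 3.21 (SD, n = 3). These intervals treat reads as independent and cover counting error only. The share of replicate 2 was the highest, although its total level of Col2a1, 31.0 TPM, was close to their 31.6 and 31.7 TPM. Outside Tg-RKIP the form with exon 2 had no read, but with at most 3 Col2a1 reads per library its share cannot be read there. How reads shared by several transcripts were divided is not given in the sources used here. That division can be unstable: for Cnmd, whose main pair of transcripts have 7 exons each and 1433 or 1362 bases, Tg-RKIP replicate 1 had 46 reads on the longer and 0 on the shorter one, and replicate 2 had 0 and 60.

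Type IX collagen decorates the surface of type II fibrils. Col9a1 (1:24216691-24291765, plus strand) encodes its alpha1 chain and had 26, 34 and 33 reads in Tg-RKIP, 1, 3 and 3 in the Tg-GRK2-labelled libraries and 2, 1 and 2 in FVB. The Tg-RKIP libraries stand apart from all others at a low level of 0.558 ± 0.0810 TPM. The ratio of summed reads was 14.4 (95% counting interval 5.95 to 45.3) to FVB and 11.0 (5.12 to 28.1) to the Tg-GRK2-labelled libraries.

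The gene has a pair of start sites. From the upstream site comes a long transcript, the form known from cartilage, which adds the large N-terminal NC4 domain, and from the downstream site a short transcript known from the eye. In the deposited annotation the starts lie 17577 bases apart, the long transcript has 38 exons and 3834 bases, and the short one has 32 exons and 3059 bases. All 93 Col9a1 reads of the 3 Tg-RKIP libraries were assigned to the short transcript and 0 to the long one, beside 1046 bases, 27.3% of the long transcript, that lie outside the short one. Taking 3 reads as the limit of a count of 0, this allows the long transcript up to 3.23% of the reads if every read told the forms apart, and up to 11.8% if only reads in those 1046 bases did. The limits cover counting error only. The windows of 300 bases around both starts are printed because they are the sequences by which the forms part. They are RefSeq promoters of build GRCm38.p6, so their coordinates do not compare with those above, and their last 20 bases are found in the long and the short transcript respectively.

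Col9a1 upstream start, chr1:24177360-24177659, plus strand: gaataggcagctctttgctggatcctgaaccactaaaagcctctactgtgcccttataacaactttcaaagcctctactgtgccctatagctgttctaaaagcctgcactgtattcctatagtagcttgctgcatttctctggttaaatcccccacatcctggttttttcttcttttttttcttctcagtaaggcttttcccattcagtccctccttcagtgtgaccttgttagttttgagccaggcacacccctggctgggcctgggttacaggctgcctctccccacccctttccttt

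Col9a1 downstream start, chr1:24194953-24195252, plus strand: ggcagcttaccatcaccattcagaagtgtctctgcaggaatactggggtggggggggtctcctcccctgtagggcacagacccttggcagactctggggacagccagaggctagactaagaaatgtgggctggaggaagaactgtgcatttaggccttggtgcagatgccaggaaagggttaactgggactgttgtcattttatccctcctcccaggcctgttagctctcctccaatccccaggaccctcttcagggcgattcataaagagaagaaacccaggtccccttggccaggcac

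**Figure D2:**
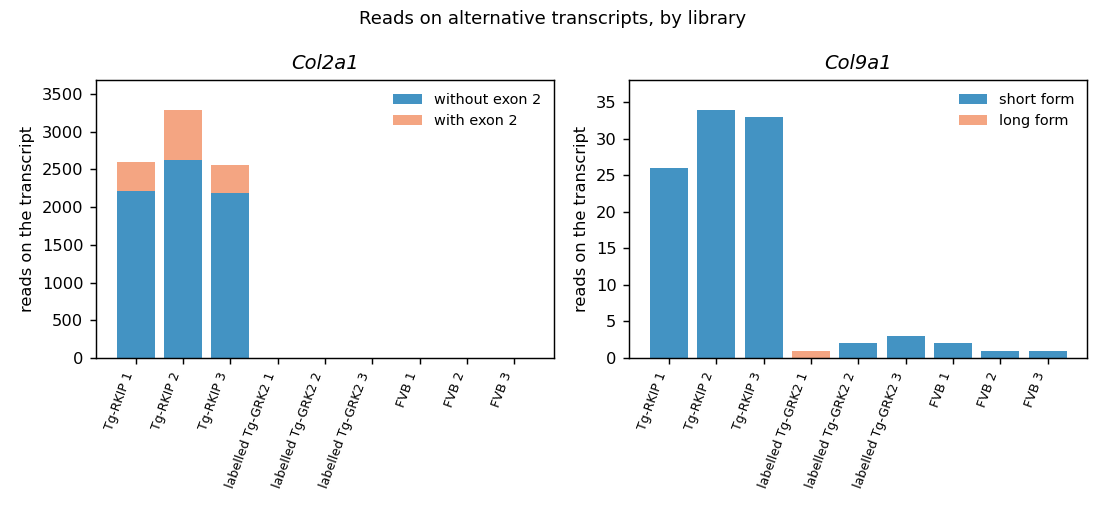
Reads in each library on the Col2a1 transcripts with and without exon 2, and on the long and short transcripts of Col9a1; bars start at 0 and the 2 panels have different axes. The form without exon 2 makes up most of each Tg-RKIP bar of Col2a1, and the Tg-RKIP bars of Col9a1 hold the short form alone.

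Type XI collagen sits in the core of the same fibrils. Col11a2 (17:34258411-34285659, plus strand), its alpha2 chain, had 203, 213 and 181 reads in Tg-RKIP, 48, 40 and 48 in the Tg-GRK2-labelled libraries and 30, 57 and 39 in FVB. Every Tg-RKIP library exceeded every other library, and the log2 difference was 1.88 (SE 0.151) to FVB and 1.86 (SE 0.149) to the Tg-GRK2-labelled libraries. Its levels were 1.84 ± 0.191, 0.708 ± 0.352 and 0.382 ± 0.104 TPM in the same order of groups. In TPM, replicate 1 of the group labelled Tg-GRK2 stood at 1.11, the highest outside Tg-RKIP, where 6 of its 48 reads were on a transcript of 426 bases that weighs more per read.

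Acan (7:78703231-78764847, plus strand) encodes aggrecan, whose sulphated chains hold water in cartilage. It had 187, 278 and 218 reads in Tg-RKIP, 7, 13 and 12 in the Tg-GRK2-labelled libraries and 8, 4 and 4 in FVB, so the Tg-RKIP libraries were separated from the rest. The log2 difference was 5.01 (SE 0.225) to FVB and 4.12 (SE 0.195) to the Tg-GRK2-labelled libraries. A transcript of 7 exons and 2596 bases that covers the 3′ part of the gene held 32.4% ± 2.27 of the Acan reads in Tg-RKIP (SD, n = 3), beside the full transcript of 17 exons and 7355 bases.

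Hapln1 (13:89687915-89759771, plus strand) encodes the link protein that ties aggrecan to hyaluronan. It had 46, 67 and 47 reads in Tg-RKIP, 34, 33 and 30 in the Tg-GRK2-labelled libraries and 28, 25 and 20 in FVB. The log2 difference was 0.75 (SE 0.213) to FVB and 0.44 (SE 0.202) to the Tg-GRK2-labelled libraries, the smallest of the 7 members that were higher in Tg-RKIP than in FVB. Read counts of Tg-RKIP do not overlap those of the others, but TPM values do, since FVB replicate 3 reached 0.526 TPM with 3 of its 20 reads on a retained-intron transcript of 464 bases, against 0.481, 0.542 and 0.496 TPM in Tg-RKIP.

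COMP is a pentameric protein that binds collagen fibrils in cartilage, tendon and ligament, and its gene was the most abundant member in every group. Comp (8:70826208-70834716, plus strand) had 10862, 13634 and 10584 reads in Tg-RKIP, 464, 450 and 518 in the Tg-GRK2-labelled libraries and 450, 525 and 421 in FVB. Its level was 294 ± 3.22 TPM in Tg-RKIP against 10.2 ± 0.0439 and 10.2 ± 0.409 TPM in the other groups. The log2 difference of 4.28 (SE 0.029) to FVB and 4.34 (SE 0.029) to the Tg-GRK2-labelled libraries is many times the spread within any group.

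A short Comp transcript of 3 exons and 495 bases at the 3′ end of the gene held 2.54%, 2.88% and 3.09% of Comp reads in Tg-RKIP against 0% in all 3 FVB libraries. The upper ends of the two-sided 95% exact binomial intervals in FVB were 0.816%, 0.7% and 0.872%, for counting error only and with the division of reads between transcripts taken as deposited. In the Tg-GRK2-labelled libraries the share was 0%, 0% and 0.386%. The exact two-sided permutation test between Tg-RKIP and FVB libraries gave p = 0.1, the smallest value that 3 against 3 allows. This transcript was picked after its values were seen, so no support is drawn from the test.

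The matrilins are adaptor proteins of the cartilage matrix, and matrilin-1 and matrilin-3 are among the genes most restricted to cartilage. Neither was detectable above the floor in any group at this depth. Matn1 (4:130671696-130682786, plus strand) had 3, 1 and 1 reads in Tg-RKIP, 1, 0 and 1 in the Tg-GRK2-labelled libraries and 0, 1 and 0 in FVB. Matn3 (12:8997929-9022028, plus strand) had 1, 4 and 2 reads in Tg-RKIP, 0 in each of the Tg-GRK2-labelled libraries and 1, 0 and 0 in FVB. Both failed the filter on low counts, so no fold is given.

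Sox9 (11:112673050-112678586, plus strand), the regulator of the chondrocyte programme and also a gene of valve cells, was present in every heart. It had 678, 886 and 726 reads in Tg-RKIP, 168, 191 and 214 in the Tg-GRK2-labelled libraries and 188, 211 and 188 in FVB. Its level was 10.1 ± 0.434 TPM in Tg-RKIP, 2.36 ± 0.200 TPM in the Tg-GRK2-labelled libraries and 2.50 ± 0.0329 TPM in FVB, with log2 differences of 1.59 (SE 0.065) to FVB and 1.72 (SE 0.065) to the Tg-GRK2-labelled libraries.

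Cnmd encodes chondromodulin, a membrane glycoprotein that inhibits the growth of vessels and is made in cartilage and in heart valves. Cnmd (14:79875130-79899610, minus strand) had 53, 64 and 48 reads in Tg-RKIP, 36, 47 and 34 in the Tg-GRK2-labelled libraries and 52, 52 and 48 in FVB. Levels were 2.33 ± 0.213, 1.56 ± 0.536 and 2.44 ± 0.0478 TPM, and the ranges of Tg-RKIP and FVB overlap. The direction to FVB depended on the scale, with a log2 difference of -0.25 (SE 0.184) under TMM, 0.12 under library size alone and -0.07 on log2(TPM + 0.1). It was the one tested member that was not higher in Tg-RKIP than in FVB.

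In the order of level per transcript length, the Tg-RKIP hearts ran from Comp through Col2a1, Sox9, Acan, Cnmd, Col11a2, Col9a1 and Hapln1 to Matn1 and Matn3. Acan and Cnmd overlap in this order, at 2.37 to 2.93 and 2.13 to 2.55 TPM, and so do Col9a1 and Hapln1, and Matn1 and Matn3. The FVB order was Comp, Sox9, Cnmd, Col11a2, Hapln1, Acan, Col9a1, Col2a1, Matn1 and Matn3. Neighbours in it do not overlap between Comp and Sox9, between Cnmd and Col11a2 and between Hapln1 and Acan, whereas every other pair of neighbours does. The Tg-GRK2-labelled libraries had the same order of means as FVB, with Matn3 at 0. Col2a1 thus stood in the second place in Tg-RKIP and in the eighth in both other groups.

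Over the whole group, 8 of the 10 members passed the filter on low counts, and all 10 are accounted for above. Of these 8, 7 were higher in Tg-RKIP than in FVB at the adjusted threshold and none was lower, beside 36.8% higher and 37.1% lower of all genes tested, and 6 were higher by at least 1 on the log2 scale beside 10.2% of all genes. Their median log2 difference was 2.82, or 2.23 with the genes at the floor set to the lower limit of their ratio. Between Tg-RKIP and the Tg-GRK2-labelled libraries, 6 were higher and none lower, beside 37.9% and 36.6% of all genes. Between the Tg-GRK2-labelled libraries and FVB, 0 of 8 passed the threshold in edgeR, 2 were past an unadjusted threshold of 0.05, and DESeq2 called 0 higher, beside 12.2% higher and 12.2% lower of all genes. Without replicate 2 of the group labelled Tg-GRK2, Cnmd was called lower than in FVB in edgeR, at a log2 difference of -0.67. Nothing is read from these shares, since the same contrasts were known when the members were chosen. The comparisons share their libraries.

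Promoter windows in RefSeq matched 7 of the 10 members (Acan, Cnmd, Col11a2, Col9a1, Hapln1, Matn1 and Matn3), with 8 windows since Col9a1 has a pair. The windows were searched on both strands for 3 motifs: ACAAT, the core that SOX proteins bind, ACAAAG, a separate variant of such a site that does not contain it, and TATAAA, the TATA box. ACAAT was found in 1 of 8 windows (12.5%) against 31% of 32851 promoters, ACAAAG in 0 of 8 against 18.7%, and TATAAA in 1 of 8 (12.5%) against 13.6%. The last 20 bases of the Acan and Col11a2 windows were not found in the main deposited transcript of either gene. Whether these windows hold the starts of those transcripts is therefore not known. For the other windows the last 20 bases were found in a transcript of the gene. The windows with a match are shown with the motif in capitals.

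Hapln1, chr13:89540386-89540685, plus strand, GRCm38.p6: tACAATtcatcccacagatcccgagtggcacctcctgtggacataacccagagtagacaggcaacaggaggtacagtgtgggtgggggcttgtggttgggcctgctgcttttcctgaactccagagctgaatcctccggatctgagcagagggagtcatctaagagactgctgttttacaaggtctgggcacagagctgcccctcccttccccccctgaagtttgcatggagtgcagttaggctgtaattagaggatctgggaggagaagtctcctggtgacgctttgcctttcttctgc

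Col11a2, chr17:34038888-34039187, plus strand, GRCm38.p6: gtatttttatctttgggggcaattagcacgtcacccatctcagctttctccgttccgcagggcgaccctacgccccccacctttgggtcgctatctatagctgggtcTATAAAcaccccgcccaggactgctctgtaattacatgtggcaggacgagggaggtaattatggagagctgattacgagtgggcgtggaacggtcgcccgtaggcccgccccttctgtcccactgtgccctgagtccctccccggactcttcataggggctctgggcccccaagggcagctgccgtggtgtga

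Further genes of the cartilage programme were taken from a list of 42, of which 34 passed the filter. The list was written from general knowledge of cartilage but with earlier results of these libraries known, so its counts and p-values are not independent support for a direction. In Tg-RKIP against FVB, 20 of these 34 rose and 3 fell at an adjusted p under 0.05 (edgeR), beside 36.8% and 37.1% of all genes, and 11 did not pass. By at least 1 on the log2 scale 15 rose, beside 10.2% of all genes. Col9a2, Col9a3, Col10a1 and Adamts4 are among these. They passed the filter on low counts only through Tg-RKIP and could hardly have been called lower, a limit that the counts carry. Their median log2 difference was 0.57, and that over all genes tested was 0.009. Between the Tg-GRK2-labelled libraries and FVB, 5 rose, none by 1 or more, and 2 fell, with a median of -0.01. These were 14.7% and 5.88% of the 34, beside 12.2% of all genes in each direction. With scaling to library size alone, 28 of the 34 passed as higher and 1 as lower for Tg-RKIP against FVB, beside 62.6% and 17.1% of all genes.

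All 5 further collagens of cartilage rose in Tg-RKIP, beside 36.8% higher and 37.1% lower of all genes tested. Since Col9a2, Col9a3 and Col10a1 passed the filter on low counts through Tg-RKIP alone, nothing is read from this count. Col9a2 and Col9a3, the partner chains of Col9a1, rose by 3.19 (SE 0.295) and 2.62 (SE 0.324) on the log2 scale. Their reads went from 6, 5 and 5 and from 3, 9 and 6 in FVB to 67, 68 and 56 and to 50, 59 and 36 in Tg-RKIP. Col11a1, the partner of Col11a2, rose by 2.83 (SE 0.161) and Col27a1 by 0.91 (SE 0.095). Col10a1, the collagen of hypertrophic chondrocytes next to bone, had 734, 869 and 678 reads in Tg-RKIP, 0, 1 and 1 in the Tg-GRK2-labelled libraries and 0, 1 and 4 in FVB. Its reads were 353 times those of FVB (95% counting interval 151 to 1090; 1210 without FVB replicate 3), and like Col2a1 it was at the floor in both other groups. Col10a1 lies within Nt5dc1, a gene on the other strand with 253 to 412 reads in all 9 libraries.

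Among 13 tested genes of the noncollagenous matrix, 8 rose and 1 fell, and for these and the lists that follow the background is the same 36.8% higher and 37.1% lower of all genes. Cilp, an intermediate layer protein, rose by 3.01 (SE 0.065), Matn4, a more widely expressed matrilin, by 2.79 (SE 0.173), Chad, which encodes chondroadherin, by 2.61 (SE 0.067), and the collagen-binding proteoglycan gene Fmod by 2.26 (SE 0.037). Cytl1 rose by 1.96, the chondrocyte integrin subunit gene Itga10 by 1.78, Prelp by 1.56 and the lubricin gene Prg4 by 0.60. Clec3a fell by 0.71 (SE 0.286, adjusted p = 0.0307, edgeR), a call that was lost in 9 alternatives. The log2 difference was -0.31 without FVB replicate 2, whose 48 reads were the most of any library, at an adjusted p of 0.365 in edgeR, and -0.69 to -0.74 without each Tg-RKIP library in turn (0.0515 to 0.067). The call was also lost in DESeq2 (adjusted p = 0.068), with scaling to library size alone, in both limma fits and on the most abundant transcript. Snorc, a transmembrane proteoglycan gene of chondrocytes that failed the filter, had 12, 12 and 9 reads in Tg-RKIP, 3, 0 and 0 in the Tg-GRK2-labelled libraries and 0 in every FVB library.

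The regulators were mixed, with 3 of 7 tested higher and 1 lower, shares from which nothing is read beside that background. Of these, Pth1r, the parathyroid hormone receptor of growth plate and bone, rose by 1.72 (SE 0.126), Runx2, the regulator of hypertrophic chondrocytes and osteoblasts, by 1.28 (SE 0.165), and Sox5 by 0.53 (SE 0.112). Sox6, which acts with SOX5 and SOX9 and is also a gene of muscle, fell by 0.83 (SE 0.064, adjusted p = 1.36e-10, edgeR) from 563, 567 and 489 reads in FVB to 399, 429 and 346. The Sox5 call was lost, and its direction turned, when the most abundant transcript stood for the gene. Nkx3-2 and Pax1, regulators of early cartilage, had at most 3 reads in any library. Of 6 tested genes for the sulphation and chain synthesis of proteoglycans, Papss2 rose by 0.39 and Slc26a2 fell by 0.40, and the latter difference was -0.02 when reads were scaled to library size alone. The matrix proteases rose in all 3 cases, the aggrecanase gene Adamts4 by 2.46 (SE 0.397), the collagenase gene Mmp13 by 1.34 (SE 0.157) and Adamts5 by 0.35 (SE 0.044). Adamts5 also rose by 0.35 between FVB and the Tg-GRK2-labelled libraries.

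**Figure D3:**
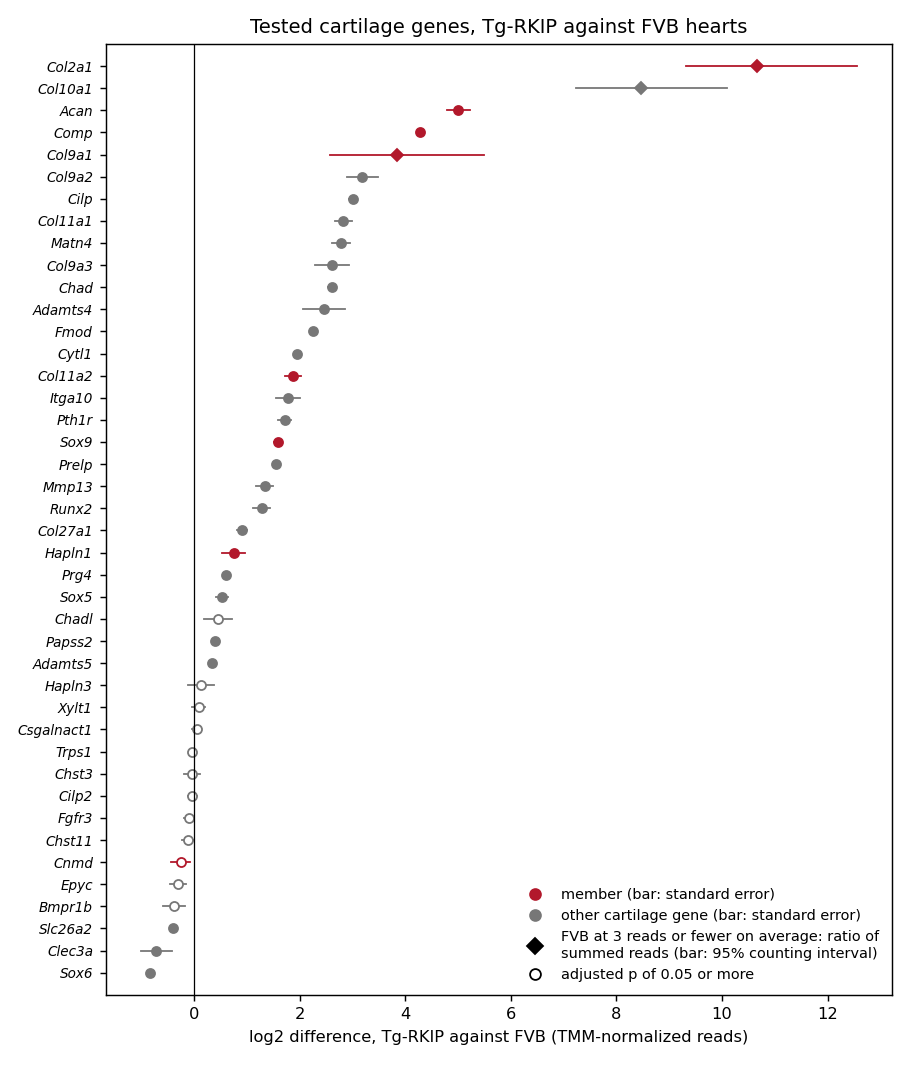
Log2 difference between Tg-RKIP and FVB for the 8 members and 34 other cartilage genes that were tested; circles carry standard errors, diamonds are ratios of summed reads with 95% counting intervals for genes at the floor in FVB, and open symbols did not reach the adjusted threshold. Col2a1 and Col10a1 lie farthest to the right, and Sox6 farthest to the left.

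Cells of other tissues that a dissected heart could hold were followed by their marker genes. In bulk tissue fewer cells of a type and less RNA per cell cannot be told apart. The members summed to 339 to 346 TPM in Tg-RKIP, 14.7 to 16.1 TPM in the Tg-GRK2-labelled libraries and 15.8 to 16.1 TPM in FVB. Secretory airway (club cell) genes, 8 of 8 of which were higher than in FVB in both other groups (beside 36.8% of all genes for Tg-RKIP and 12.2% for the Tg-GRK2-labelled libraries), summed to 96.8 to 103 TPM in Tg-RKIP, 205 to 214 TPM in the Tg-GRK2-labelled libraries and 0.479 to 0.822 TPM in FVB. Scgb1a1, the defining secretoglobin of these cells, had 388, 510 and 395 reads in Tg-RKIP, 1190, 1085 and 1284 in the Tg-GRK2-labelled libraries and 0 in every FVB library. Of the 8 club cell genes, 5 had 0 reads in every FVB library, and Scgb3a1, Bpifb1 and Cyp2f2 had at most 13 in any. All 8 passed the filter on low counts only through the other groups. The count of 8 of 8 carries this limit. The club cell sum was highest in the Tg-GRK2-labelled libraries, whereas the basal airway sum was highest in Tg-RKIP and ciliated and alveolar sums overlapped between these groups. In the Tg-GRK2-labelled libraries Col2a1 reads were at the floor, as they were in FVB, and the cartilage sum overlapped that of FVB. In Tg-RKIP club cell and cartilage sums were both above FVB. The part of airway tissue in the cartilage levels was not tested. Alveolar genes, 6 in the list, summed to 0.748 to 1.25, 0.567 to 1.55 and 0.0325 to 0.151 TPM, ciliated airway genes (6) to 1.93 to 2.36, 1.68 to 2.45 and 1.01 to 1.39 TPM, basal airway genes (4) to 2.40 to 3.01, 0.978 to 1.85 and 0.987 to 1.27 TPM, and thyroid genes (5) to 1.42 to 2.17, 2.03 to 2.88 and 1.72 to 2.55 TPM in the same order of groups. Single genes differed from these sums. Tshr of the thyroid list had 9, 13 and 7 reads in Tg-RKIP, 20, 12 and 10 in the Tg-GRK2-labelled libraries and 0 in every FVB library. The thyroglobulin gene Tg had 48, 80 and 46 reads in Tg-RKIP against 93, 125 and 94 in FVB. Krt15 of the basal list had 7, 15 and 8 reads in Tg-RKIP, 15, 5 and 7 in the Tg-GRK2-labelled libraries and 0 in every FVB library.

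Bone genes were also higher in Tg-RKIP. All 8 passed the edgeR threshold as higher than in FVB. In that comparison 36.8% of all genes were higher and 37.1% lower, which is also the background for the counts of the next lists. Of the 8 bone genes, 6 were at the floor in both other groups. These 6 and Phex, with at most 8 reads in any library of the other groups, passed the filter on low counts through Tg-RKIP alone. They could hardly have been called lower, so nothing is read from this count. Between the Tg-GRK2-labelled libraries and FVB no bone gene passed the adjusted threshold in edgeR, beside 12.2% higher and 12.2% lower of all genes. Only 2 of the 8 had a group above the floor in that comparison, so a call was hardly possible for the others. Ibsp, a sialoprotein of bone and mineralising cartilage, had 720, 1010 and 756 reads in Tg-RKIP, 1 in each of the Tg-GRK2-labelled libraries and 2, 0 and 0 in FVB. Sp7, the osteoblast transcription factor, had 57, 62 and 51 reads against at most 1 in any other library. The bone list summed to 70.1 to 72.0 TPM in Tg-RKIP, 20.9 to 22.7 TPM in the Tg-GRK2-labelled libraries and 20.3 to 22.4 TPM in FVB. Fibroblast genes, 8 of 8 of which were higher in Tg-RKIP than in FVB, summed to 2720 to 2730, 1180 to 1200 and 1030 to 1060 TPM, and tendon genes, 3 of 4 tested, to 56.7 to 60.8, 13.8 to 14.3 and 13.7 to 14.1 TPM. Their part in the levels of Comp, Sox9 and the other members that these cells can also express was not tested. Cardiomyocyte genes summed to 47700 to 48600, 47700 to 49200 and 49600 to 49900 TPM in the same order. Under TMM 6 of the 8 were lower in Tg-RKIP than in FVB and 1, Mybpc3, was higher (0.26), with a median log2 difference of -0.67. The scale mattered here, since Tnnt2, at a log2 difference of -0.10 under TMM, stood at 9510 TPM in Tg-RKIP against 7660 TPM in FVB.

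**Figure D4:**
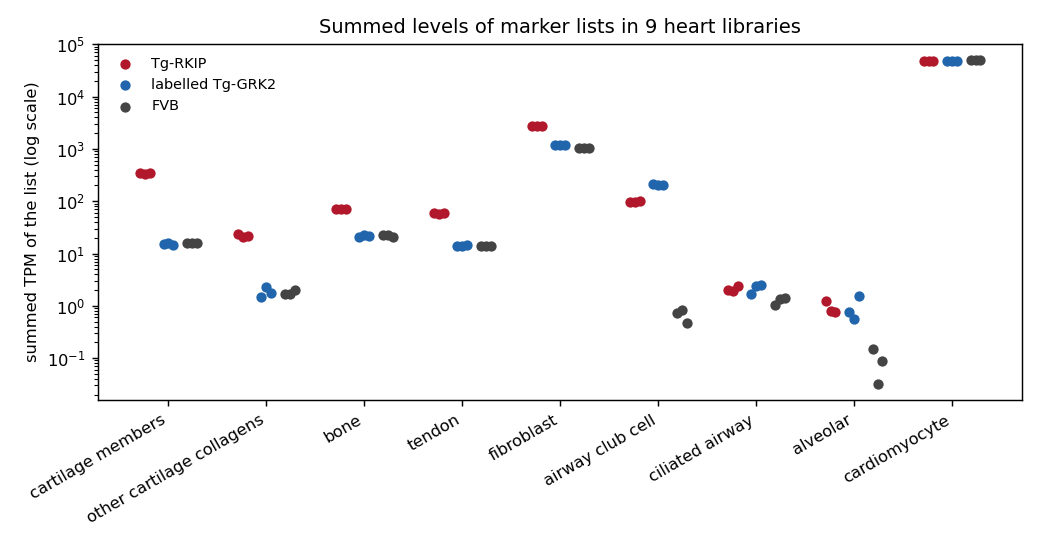
Summed level of each marker list in each library, in TPM on a log axis; points are libraries. Cartilage, bone, tendon and fibroblast lists are higher in the 3 Tg-RKIP libraries than in all others, and the airway club cell list is highest in the Tg-GRK2-labelled libraries.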

How the data were processed

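Whole-heart mRNA was fragmented, primed with random hexamers and read as single 50 bp reads. The authors deposited read counts per transcript as whole numbers, not normalised, for 127558 transcripts, and TPM values per transcript; TPM recomputed from the deposited counts and transcript lengths differed from them by at most 5.50e-06. The submitters' processing notes name the build GRCm39. The aligner, the counting program and the division of shared reads are not given in the sources used here, and it is not stated whether counting used strand.

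Counts were summed by gene name and tested in R 4.3.3 with edgeR 4.0.16 (TMM, filterByExpr, glmQLFit and glmQLFTest) on all 9 libraries with a mean per group, with the Benjamini-Hochberg adjustment over 15504 genes and a threshold of 0.05. The alternatives used limma 3.58.1 on log2(TPM + 0.1) or log2(TPM + 1), keeping genes that reached 1 TPM in 3 or more libraries, DESeq2 1.42.0, other scalings, no filter, pairs of groups, the most abundant transcript, replicate numbers and each library left out. Genes with 3 reads or fewer on average in a group were treated as at the floor, and ratios of summed reads per TMM-scaled library then carry 95% exact intervals for counting error. The scripts were tested on simulated data.

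The members, the lists of further cartilage genes and the lists of other cell types (airway, alveolar, thyroid, bone, tendon, adipocyte, fibroblast and cardiomyocyte) were chosen with earlier results of these data known. Named were all members, further cartilage genes that rose by at least 1 on the log2 scale, defining genes of the other lists, and the 8 genes outside all lists whose log2 TMM-scaled counts (CPM, prior count 2, at least 50 reads on average in the highest group) correlated best with the mean of the tested members; other names were chosen after their values were seen. Promoter windows came from RefSeq (GRCm38.p6), and exon 2 of Col2a1 from GENCODE M21. Figures were drawn with matplotlib.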

Additional observations from a re-analysis of the deposited data

How the results depend on the processing

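The 7 members past the threshold between Tg-RKIP and FVB stayed past it in every alternative in which the gene was tested, from which no support is drawn. Of 34 other cartilage genes, the count lower in Tg-RKIP than in FVB was 1 instead of 3, and lower than in the Tg-GRK2-labelled libraries 1 instead of 6, with scaling to library size only, with limma on log2(TPM + 0.1) and with limma on log2(TPM + 1), where the limma filter left 29 of the 34. The count of all genes called between the Tg-GRK2-labelled libraries and FVB was 1665 instead of 3793 when the most abundant transcript stood for the gene. The cause was not tested. Of the remaining alternative counts, 209 were within 1.5 times the main count, and of the single log2 differences of members 58 moved by more than the spread between replicates and 359 did not, none turning the sign of a called value. Scaling to library size only also called 8 instead of 6 members higher in Tg-RKIP than in the Tg-GRK2-labelled libraries, adding Hapln1 and Cnmd. Both limma fits also put Cnmd past the threshold in that comparison, at log2 differences of 0.59 with log2(TPM + 0.1) and 0.40 with log2(TPM + 1), and between the Tg-GRK2-labelled libraries and FVB, at -0.66 and -0.45. These are descriptions of a member. Deviations of same-numbered libraries correlated at -0.04 to 0.04 over 9 pairs, so the numbers do not pair the libraries. With the replicate block, 7 members were higher in Tg-RKIP than in FVB, 20 other cartilage genes were higher and 4 lower, and 11401 of all genes were called. Depth limits Matn1, Matn3 and the transcript shares outside Tg-RKIP.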

Other observations

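The levels of Plvap and Frzb correlated best with the mean log2 level of the tested members over the 9 libraries (Pearson r = 0.9992 each, given as a description over libraries that fall into separate clusters), followed by Actb, Plcg2, Cygb, Acta1, Des and Vim (0.9991 to 0.9988). Adipocyte genes, 6 in the list, summed to 929 to 954 TPM in Tg-RKIP, 517 to 549 TPM in the Tg-GRK2-labelled libraries and 596 to 626 TPM in FVB. All 6 were higher in Tg-RKIP than in FVB in the edgeR test, beside 36.8% of all genes. Fabp4, which capillary endothelium also expresses, made up most of the sum, at 492, 505 and 525 TPM in the Tg-GRK2-labelled libraries and 587, 617 and 595 TPM in FVB, a log2 difference of -0.29. Of the other adipocyte genes, Ucp1 (2.28), Plin1 (1.32), Cidec (1.23) and Adipoq (0.95) were higher in the Tg-GRK2-labelled libraries than in FVB, so that 4 of 6 were higher and 1 lower there, beside 12.2% of all genes in each direction. The tendon genes Tnmd, with 101, 112 and 86 reads in Tg-RKIP against 18, 17 and 9 in FVB, and Thbs4, with 2192, 2789 and 2185 reads against 450, 502 and 397, did not overlap between these groups, whereas Mkx, with 17, 18 and 11 against 20, 15 and 5 reads, did. Scx was also higher in Tg-RKIP, with 270, 277 and 238 reads against 100, 127 and 116 in FVB. Kera, which failed the filter, went the other way, with 2, 1 and 0 reads in Tg-RKIP against 3, 4 and 3 in FVB.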
